A study of Canis lupus familiaris with 28 samples.

Results

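The genes described here are the respiratory chain genes carried by mitochondrial DNA, followed through canine histiocytic sarcoma (HS). They were chosen by identifier and not by any measured value, though with earlier results of these data known. The 10 genes are *ND1* (ENSCAFG00000022713), *ND2* (ENSCAFG00000022717), *ND4* (ENSCAFG00000022735), *ND5* (ENSCAFG00000022739), *ND6* (ENSCAFG00000022740), *CYTB* (ENSCAFG00000022742), *COX1* (ENSCAFG00000022723), *COX2* (ENSCAFG00000022726), *COX3* (ENSCAFG00000022730) and *ATP6* (ENSCAFG00000022729), out of 32704 identifiers in the count tables. They lie in a run of 37 consecutive identifiers. No table at hand pairs these identifiers with a name, so the names rest on the list that defined the genes.

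Mitochondrial DNA is a small circular genome, present in many copies per cell, that is transcribed from both strands into long RNAs which are then cut into single messages. Its proteins are core subunits of the machinery that makes ATP from oxygen: ND subunits of complex I (NADH dehydrogenase), cytochrome b of complex III, the catalytic subunits of complex IV (cytochrome c oxidase) and a subunit of complex V (ATP synthase). All of these genes are read from the same strand except *ND6*. Apart from a few small subunits (ND3, ND4L and ATP8), which mitochondrial DNA also encodes and which are not among the listed genes, the other subunits of the chain are made from nuclear genes. Messages of mitochondrial genes are among the most abundant RNAs of energy-demanding tissues such as liver and muscle.

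RNA was measured in the tumors of 18 affected Bernese Mountain Dogs (BMDs), of which 15 were labelled HS and 3 hemophagocytic HS (HHS), a subtype in which the histiocytes take up red blood cells. The unaffected controls were 3 blood samples of BMDs and 1 sample each of lung, spleen and liver from German Shepherd Dogs (GSDs). Cultured cells were the HS lines BD and OD (each from a BMD) and PJ (from a Rottweiler), compared with DC3F9, a strain of dendritic cells labelled unstimulated. Per the paper, DC3F9 was derived from monocytes in the blood of an unaffected mongrel with the cytokines GM-CSF and IL-4. No such cytokines are given for the lines. The tumors came from lung (6), liver (4), spleen (2), thorax (2), and a thoracic mass, leg mass, shoulder and lymph node (1 each). All were untreated in the labels, each tumor library is 1 affected dog by the paper's count, and each line is 1 culture. The sample titles do not say whether the controls came from different dogs. Tissue and blood libraries were made from total RNA after removal of ribosomal and globin RNA, whereas cell libraries were made with an mRNA kit at another facility, and the 2 kinds were counted in separate tables.

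The authors' values are raw read counts per gene, and the reads counted on genes numbered 99701394 to 171815073 in the tumors, 133524755 to 180801439 in the controls and 82007857 to 131518875 in the cultured cells. At this depth 3 counts correspond to 0.0166 to 0.0366 CPM (counts of a gene per 1000000 counts of its library), below the level of every member in every library, and intervals and limits of this kind cover counting error only. The column names of tumors and solid controls begin with 1 shared prefix and those of the blood controls with a different one. What the prefix stands for is not stated, and prefix, breed and tissue cannot be told apart among controls. Of 7 markers of macrophages and dendritic cells, only *LYZ* (lysozyme) could be paired with an identifier, and it lay at 7838 to 11892 CPM in blood, 287 to 7222 CPM in tumors, 40.8 to 1064 CPM in solid controls and 150 to 611 CPM in cultured cells. Markers of hepatocytes, lung epithelium, erythroid cells, T and B cells and muscle could not be paired and were not analysed here. In bulk samples, fewer cells of a type and less RNA per cell cannot be told apart.

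The joint share of the 10 genes, the percentage of all counts that fell on them, ranged 24.5-fold between tumors. It was 0.705% in HS35 (lung), 1.92% in HS33 (liver), 2.49% in HS47 (lung), 2.79% in HS46 (liver, HHS), 2.98% in HS14 (thorax) and 3.35% in HS37 (thorax). It was 3.78% in HS48 (lung), 4.97% in HS4 (thoracic mass), 5.27% in both HS34 (leg mass) and HS39 (shoulder), 5.33% in HS53 (lung, HHS) and 6.04% in HS52 (lung). It was 6.32% in HS50 (liver), 7.11% in HS51 (spleen), 7.39% in HS27 (lung), 9.08% in HS36 (liver), 9.68% in HS41 (lymph node, HHS) and 17.3% in HS29 (spleen). HS35 and HS29, both of them HS tumors, thus stood at opposite ends of the range.

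In the controls the joint share was 0.851%, 1.22% and 0.938% in blood, 6.28% in lung, 6.58% in spleen and 12% in liver. Every blood control lay below every solid control, and 17 of the 18 tumors lay above all blood controls, with HS35 below them. Of the same tumors, 12 lay below both the lung and the spleen control and 5 above both. The cell lines held 3.86% (PJ), 4.59% (BD) and 5.54% (OD), all above the 2.47% of DC3F9 and all inside the range of the tumors. Exact 95% binomial intervals were narrow at this depth, for example 0.7041% to 0.7067% in HS35, so counting error is small beside the spread between animals.

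**Figure D1:**
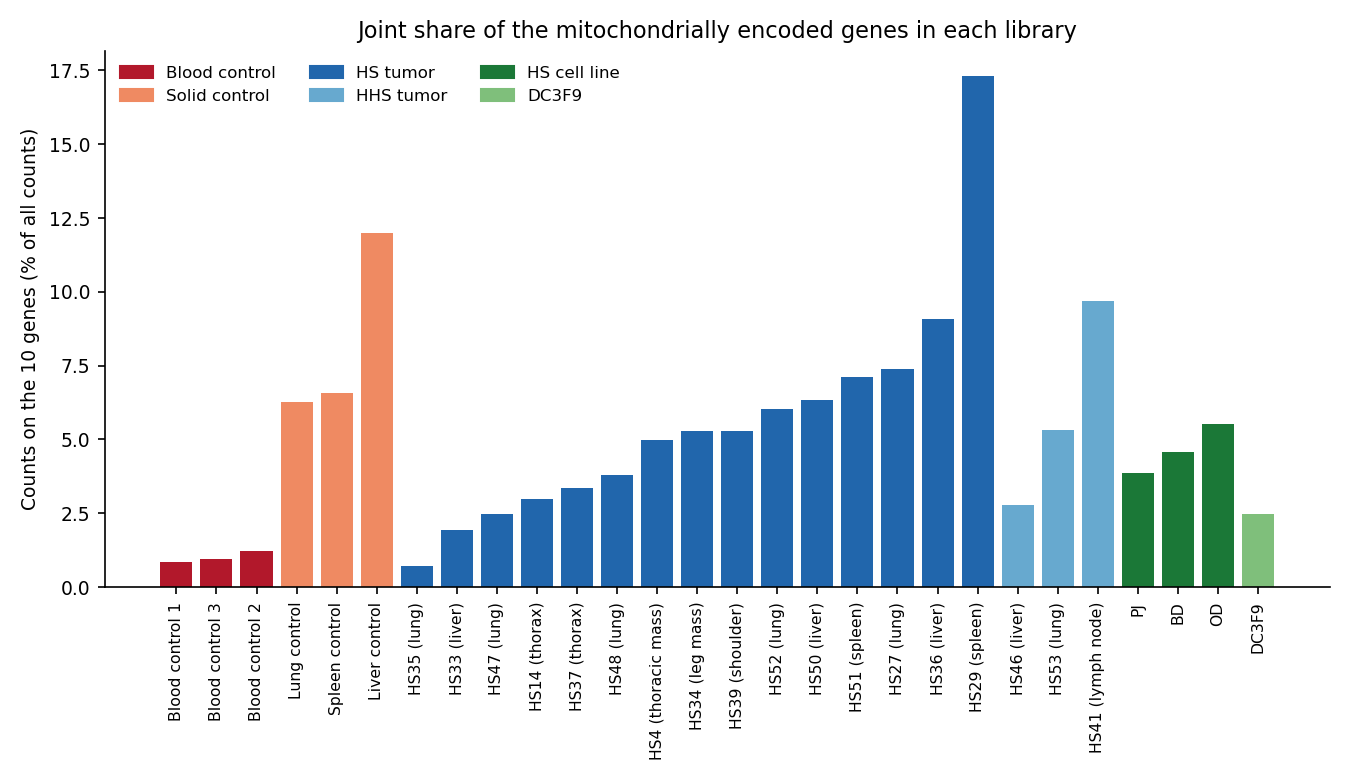
Bars give the percentage of all counts that fell on the 10 mitochondrially encoded genes in each of the 28 libraries, with the site of each tumor in brackets and colors for the group. Blood controls sit between 0.851% and 1.22%, solid controls between 6.28% and 12%, and tumors between 0.705% (HS35) and 17.3% (HS29).

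Ordered by mean joint share, blood came lowest (1.00% ± 0.194, SD, n = 3), followed by DC3F9 (1 library), lung tumors (4.29% ± 2.45, n = 6), cell lines (4.66% ± 0.841, n = 3), liver tumors (5.03% ± 3.31, n = 4), tumors of other sites (5.25% ± 2.39, n = 6), solid controls (8.29% ± 3.22, n = 3) and spleen tumors (12.2% ± 7.19, n = 2). From lung tumors upward, each neighbour in this order overlapped the next. DC3F9 lay inside the range of the lung tumors, and blood overlapped them through HS35. Cell and tissue libraries were made with different kits, so their places relative to each other carry that difference too. The joint share is a score over the listed genes and was not tested.

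A member was the most counted gene of the library in 7 of the 18 tumors and in 11 of the 28 libraries. In tumors, the median rank among all genes was 2 for *COX1*, 5 for *COX2*, 7 for both *ATP6* and *COX3*, and 15 for *ND4*, and the remaining complex I genes and *CYTB* followed at 29 to 695. These ranks are of counts, which were not divided by gene length, so they are not an order of transcript levels between genes. In the liver control 1 gene outside the run, ENSCAFG00000003016, took 12.8% of counts. With that gene taken out of the library total, the joint share of liver was 13.8%.

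The complex I genes encode membrane subunits of NADH dehydrogenase, the entry point of electrons from NADH. *ND1* lay at 208, 395 and 270 CPM in blood, at 2490 in lung, 2220 in spleen and 6301 in liver, and at 233 (HS35), 2895 (median) and 10139 CPM (HS29) in tumors. *ND2* lay at 187, 338 and 211 CPM in blood, at 2389 in lung, 1787 in spleen and 5927 in liver, and at 198 (HS35), 2062 (median) and 9255 CPM (HS29) in tumors. Both genes showed the same order of groups, with blood at the bottom, HS35 within the range of blood, and each of the remaining 17 tumors above all blood controls. *ND4* lay at 705, 1025 and 668 CPM in blood, 6150 in lung, 5426 in spleen and 7165 in liver, against 597 (HS35), 5125 (median) and 17869 CPM (HS29) in tumors. *ND5*, which lies toward the far end of the long transcript, had 255, 335 and 218 CPM in blood, 1090 in lung, 1091 in spleen and 2437 in liver, against 112 (HS35), 1042 (median) and 2626 CPM (HS39) in tumors. HS35 lay below every blood control for *ND4* and *ND5*, and HS33 did so for *ND5*.

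*ND6*, the only member read from the opposite strand, had the fewest counts. It lay at 40.7, 72.2 and 45.5 CPM in blood, 175 in lung, 197 in spleen and 435 in liver, and at 12.5 (HS35), 223 (median) and 580 CPM (HS51) in tumors. With a 46.3-fold spread, it varied more between tumors than any other member except *ND2*, whose tumors spanned 46.6-fold. The strand option of the counting is not given in the sources used here, so reads of *ND6* and of RNA from the facing strand cannot be told apart.

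*CYTB* encodes cytochrome b, the mitochondrially made subunit of complex III. Its levels were 230, 430 and 312 CPM in blood, 3406 in lung, 3033 in spleen and 3862 in liver, against 202 (HS35), 1494 (median) and 6866 CPM (HS29) in tumors. Most tumors sat below the solid controls for this gene: 13 of 18 lay below all 3 of them and 3 lay above all.

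The complex IV genes encode the catalytic core of cytochrome c oxidase, which passes electrons to oxygen. *COX1* lay at 3516, 4314 and 3628 CPM in blood, 13576 in lung, 17984 in spleen and 35167 in liver, and at 1323 (HS35), 13414 (median) and 28714 CPM (HS29) in tumors. *COX2* lay at 1164, 1773 and 1291 CPM in blood, 10695 in lung, 10352 in spleen and 15655 in liver, and at 1327 (HS35), 8617 (median) and 33011 CPM (HS29) in tumors. *COX3* lay at 1264, 2101 and 1645 CPM in blood, 13169 in lung, 13743 in spleen and 24746 in liver, and at 1431 (HS35), 7995 (median) and 30087 CPM (HS29) in tumors. For *COX1*, as for *ND5* and *ND6*, HS35 and HS33 lay below every blood control, HS37 lay among them, and the other 15 tumors lay above all of them. For *COX3*, 15 of 18 tumors were below all solid controls, the most of any member.

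*ATP6* encodes the subunit of ATP synthase that forms the proton path with the nuclear-encoded c ring. Its levels were 944, 1433 and 1087 CPM in blood, 9653 in lung, 10009 in spleen and 18405 in liver, against 1618 (HS35), 7001 (median) and 34336 CPM (HS29) in tumors. It was the only member for which all 18 tumors lay above all 3 blood controls, a separation upward that 9.09% of 20353 genes tested also showed. Of all members, 10 of 10 lay lower in every blood control than in every solid control, as did 15.3% of 19430 genes.

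**Figure D2:**
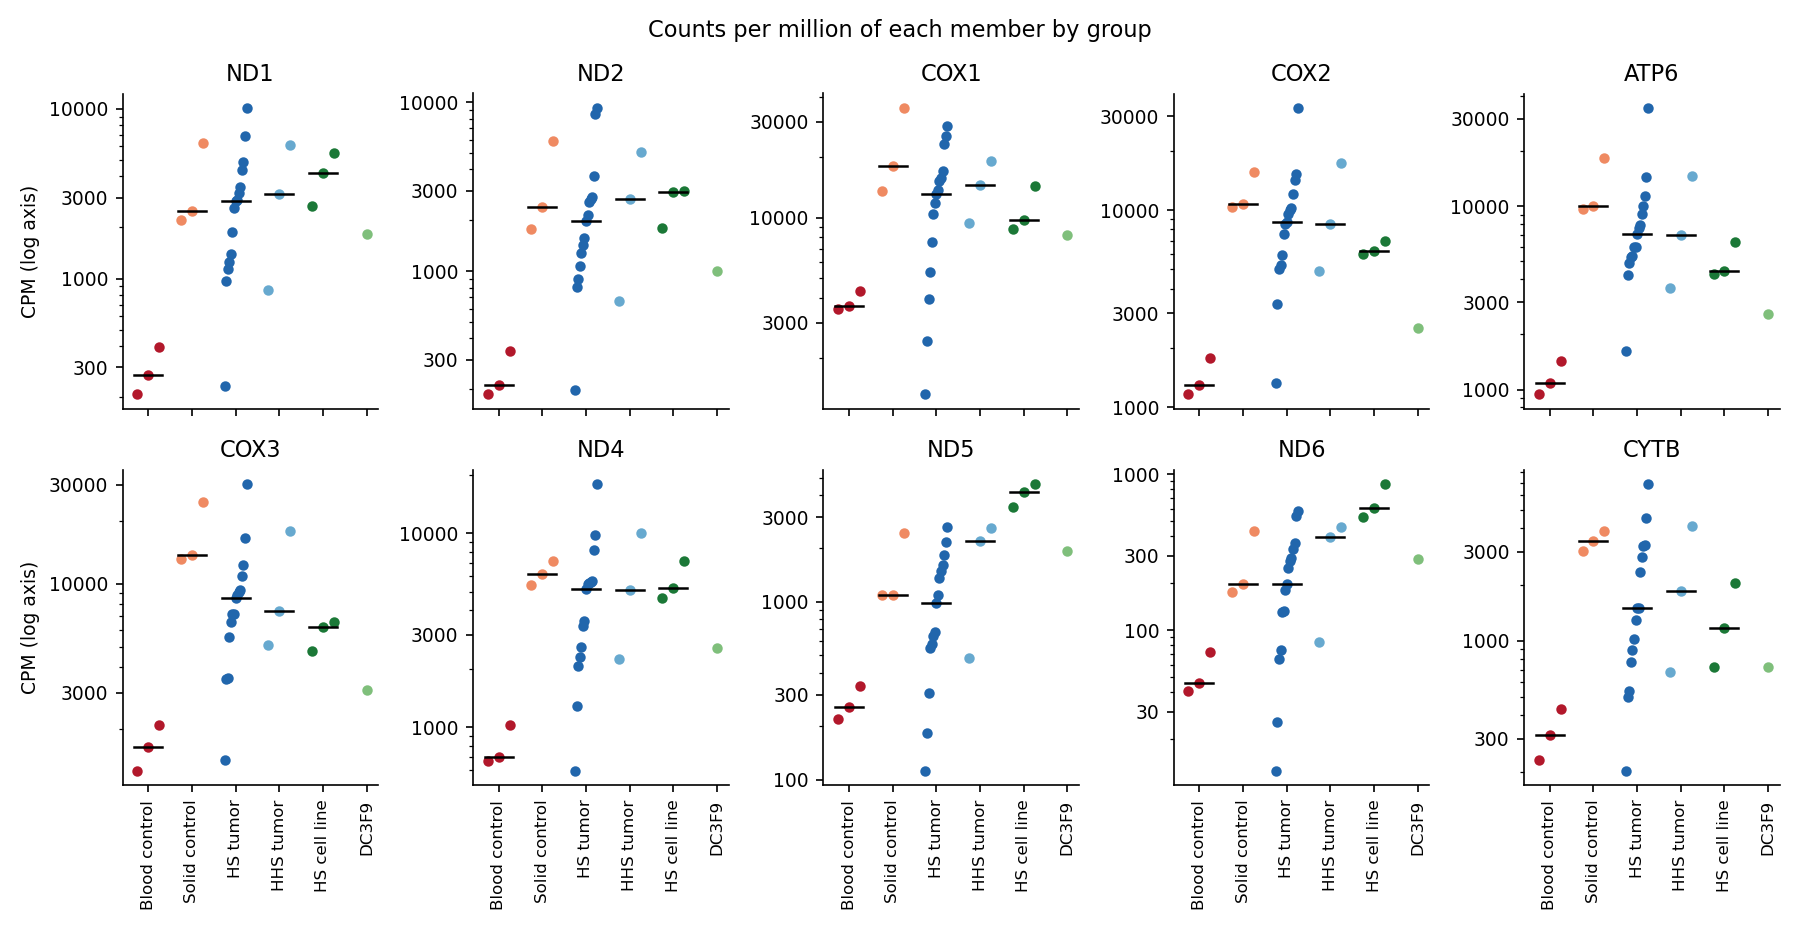
Points give the CPM of each member in single libraries on log axes that differ between panels, and lines give group medians. Blood controls lie below the solid controls in every panel, HS35 is the lowest HS tumor in every panel, and *ND5* and *ND6* are the panels in which HS cell lines lie highest relative to tumors.

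The study compared all tumors with 5 controls (3 blood, lung and spleen), leaving out liver, which stood apart, and its threshold was an adjusted p under 0.0005 together with a log2FC beyond 1.5 in either direction. No member was called (0 of 10) by edgeR's quasi-likelihood test on all genes, while 2.77% of 19430 genes were. DESeq2 called 0 members too, and 9.3% of the 18498 genes to which it gave an adjusted p. All 10 log2FC were positive, from 0.84 to 1.85 with a median of 1.27 against a median of -0.01 over all genes tested, but the tumors overlapped the controls for all 10, while 2.22% of all genes showed no overlap. An unadjusted p under 0.05 was found for 3 members, where 39.7% of all genes had one.

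*ND1* had a log2FC of 1.85 ± 0.74 (SE, 18 tumors and 5 controls), with an edgeR p of 0.0193 that became 0.0638 after Benjamini-Hochberg adjustment. *ND2* was at 1.82 ± 0.79 with an adjusted edgeR p of 0.0855, and *ND6* at 1.40 ± 0.65 with 0.111. With DESeq2, *ND1* and *ND2* reached adjusted p-values of 0.0182 and 0.0298, which pass 0.05 but not the study's threshold. Over all genes, 34.4% passed 0.05 with DESeq2, so the 2 of 10 members lie below that background. Intermediate values were found for *COX2* (1.31 ± 0.64), *ATP6* (1.28 ± 0.66), *ND4* (1.26 ± 0.68) and *ND5* (1.22 ± 0.62). The smallest were those of *COX3* (0.90 ± 0.63), *COX1* (0.86 ± 0.57) and *CYTB* (0.84 ± 0.73), whose edgeR adjusted p-values were 0.295, 0.271 and 0.403. The complex I genes were found both at the top (*ND1*, *ND2* and *ND6*) and, with *ND4* and *ND5*, below *COX2* and *ATP6*. The errors of all members overlap, but members were measured in the same libraries, so this overlap does not test differences between them.

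The direction of these values depended on which controls were used. Against the 3 blood controls, log2FC ran from 1.87 ± 0.73 (*COX1*) to 3.62 ± 1.04 (*ND2*), and 9 of 10 members had an edgeR adjusted p under 0.05, the exception being *COX1* at 0.0535. At that threshold 32.6% of all genes passed in the same fit, whose median log2FC over all genes was 0.44, and 0 members passed the study's threshold, which 6.15% of genes did. *LYZ*, the only marker at hand, was lower in tumors in this comparison (log2FC -2.26 ± 0.62, edgeR adjusted p = 0.00799), and its part in the values of the members was not tested.

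Against lung and spleen alone, whose columns share the prefix of the tumors, log2FC ran from -0.28 ± 0.89 (*CYTB*) to 0.78 ± 0.94 (*ND1*). The edgeR adjusted p-values were 0.652 to 0.993, where 9.28% of 21533 genes had one under 0.05. *CYTB* and *COX3* (-0.18 ± 0.75) turned negative there. With liver added to these, all 10 were negative, from -0.81 ± 0.70 (*ND4*) to -1.65 ± 0.64 (*COX1*), and *COX1* and *COX3* had unadjusted p-values under 0.05 (0.0169 and 0.0165, edgeR adjusted p = 0.0723 and 0.0711). In this fit 19.8% of 20575 genes had an adjusted p under 0.05, and no member did. The liver control had a TMM scaling factor of 0.353 there, against 1.21 (spleen) and 1.36 (lung) for the other controls. On total counts without such factors, an alternative added after seeing the data, all 10 were still negative, at -0.14 to -0.86, with edgeR adjusted p-values of 0.292 or more.

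**Figure D3:**
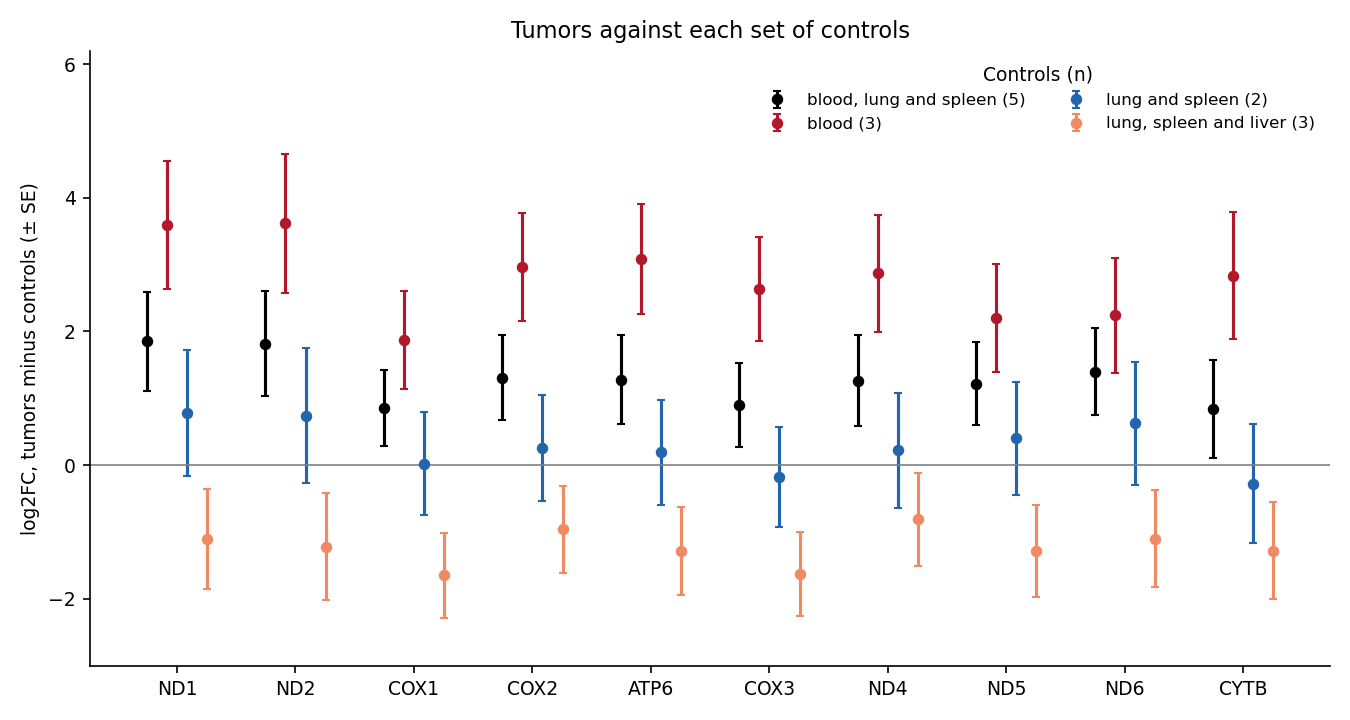
Points give the log2FC of each member, tumors minus controls, and bars ± SE from edgeR for 4 sets of controls. Values against blood lie above 0 for every member, those against lung and spleen between -0.28 and 0.78, and those against lung, spleen and liver below 0 for every member.

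Against the control of their own organ, tumors lay on either side. Of 6 lung tumors, 1 (HS27) exceeded the joint share of the lung control, and of 4 liver tumors, 0 exceeded that of the liver control. Both spleen tumors exceeded the spleen control, HS51 slightly and HS29 by more than the whole level of that control. *COX3* and *CYTB* lay below the lung control in all 6 lung tumors, whereas *ND1* lay above it in 4 of them. With 1 control per organ, from another breed, these differences have no replicate check and were not tested.

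The make-up of the member counts, each gene as a percentage of the counts on all 10, also differed between libraries and does not depend on library size or scaling factors. *COX1* took 41.3%, 35.3% and 38.7% in blood, 21.6% in lung, 27.3% in spleen and 29.3% in liver, and 11.7% (HS37), 23.9% (median) and 36.9% (HS50) in tumors. It thus held a larger share in blood than in all solid controls, and 16 of 18 tumors lay below all blood controls. *COX3* took 13.5% (HS39) to 20.3% (HS35) in tumors, the smallest range of any member as highest over lowest, yet it lay below the 20.6% to 21.0% of the solid controls in all 18 tumors. This was the only member for which the composition of tumors and solid controls did not overlap, and liver, lung and spleen are 1 library each.

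**Figure D4:**
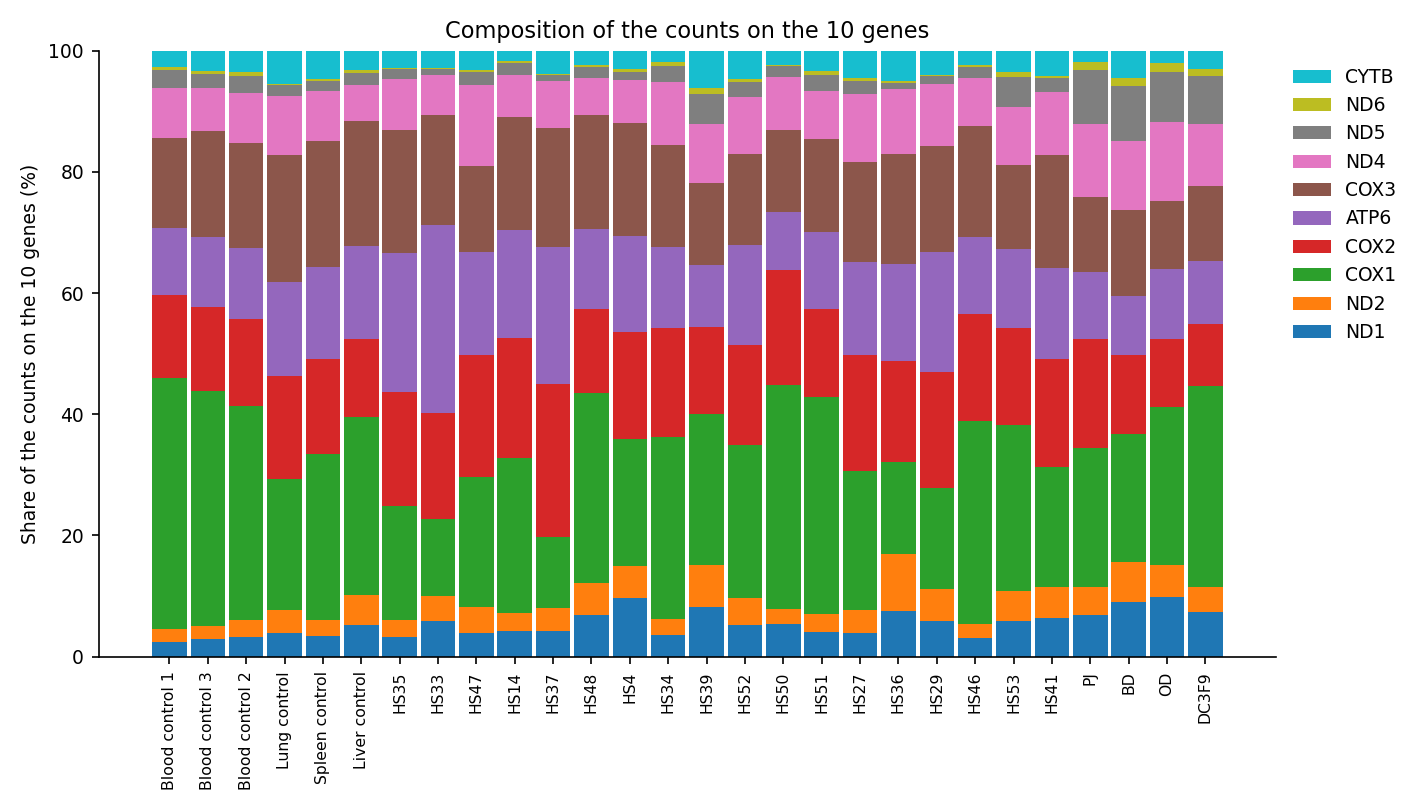
Stacked bars split the counts on the 10 genes by gene in each library, in percent. *COX1* takes the largest part in blood controls (35.3% to 41.3%), *ATP6* takes 31.1% in HS33, and *ND5* and *ND6* are widest in the 4 cell libraries.

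*ATP6* took 9.48% (HS50), 15.6% (median) and 31.1% (HS33) of the member counts in tumors, against 11.1% to 11.7% in blood and 15.2% to 15.4% in the solid controls. HS33 (31.1%), HS35 (22.9%) and HS37 (22.6%) had the largest parts on this gene and were among the tumors of low joint share. The next largest, 19.9%, was in HS29, the tumor of highest joint share, and HS46 and HS47, also of low joint share, were at 12.8% and 16.9%. In HS33, HS35 and HS37 *COX1* was at 12.7%, 18.8% and 11.7%. *COX1* and *CYTB* lie at different places on the same strand, and the ratio of their counts ran from 3.02 in HS37 to 15.6 in HS50, so the members did not vary in proportion.

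Single tumors stood out for single genes. *ND1* took 9.76% of member counts in HS4 and *ND2* took 9.32% in HS36, where the medians of tumors were 5.36% and 4.24%. *COX2* took 25.3% in HS37 against a median of 17.7%, and *ND4* 13.4% in HS47 against 9.08%. *CYTB*, *ND5* and *ND6* were all highest in HS39, at 6.09%, 4.99% and 1.03%. HS39, taken from the shoulder, was also the tumor with the largest complex I part (31.0%), whereas HS46 had the smallest (15.5%).

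*ND5* and *ND6* set the cell libraries apart from the tissue libraries. *ND5* took 8.28% (OD), 8.88% (PJ) and 9.04% (BD) of member counts in the lines, 7.84% in DC3F9, and 0.921% (HS37) to 4.99% (HS39) in the 24 tissue and blood libraries. *ND6* took 1.32% (BD), 1.37% (PJ) and 1.56% (OD) in the lines, 1.16% in DC3F9, and 0.134% (HS33) to 1.03% (HS39) in tissue and blood. For both genes all 4 cell libraries lay above all 24 other libraries, and no other member separated them. Counts of *ND6* per 100 counts of *ND5* were 14.6 to 18.8 in cell libraries and 11.2 to 31.8 in the others. The cell libraries thus lay inside the range of the others, toward its lower end. RNA kit, sequencing facility, growth in culture and cell type cannot be told apart here, since all 4 cell libraries share the first 3 and no tissue library does.

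**Figure D5:**
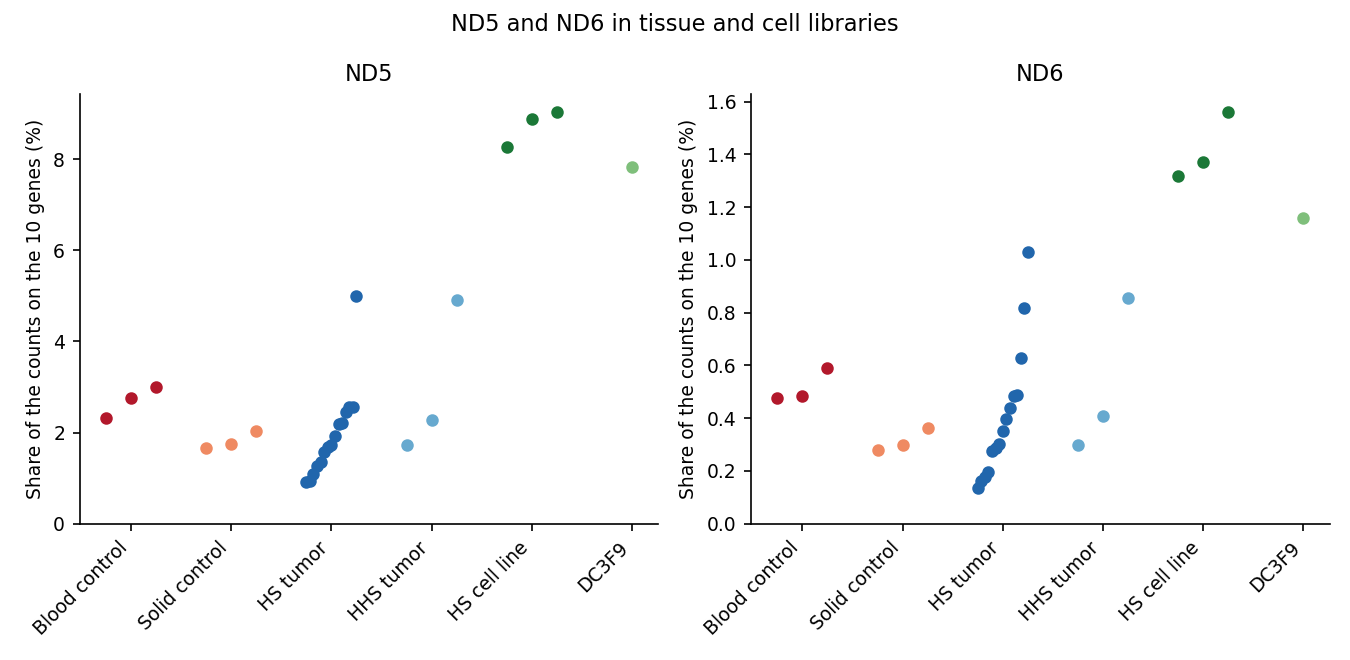
Points give the percentage of member counts on *ND5* (left) and *ND6* (right) in single libraries, by group, from 0 on linear axes. The 4 cell libraries lie at 7.84% to 9.04% for *ND5* and 1.16% to 1.56% for *ND6*, above all tissue and blood libraries.

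The second comparison of the study set the 3 HS cell lines against DC3F9. In CPM all 10 members lay above DC3F9 in all 3 lines, as did 46.3% of 18121 genes tested. *COX2* lay at 5983 (BD), 6230 (OD) and 6964 CPM (PJ) against 2520 CPM in DC3F9. *ND2* lay at 2963 (BD), 2923 (OD) and 1791 CPM (PJ) against 1009 CPM. *CYTB*, by contrast, lay at 2046 CPM in BD and 1171 CPM in OD but at 724 CPM in PJ, next to the 723 CPM of DC3F9. With edgeR, 0 members were called at an adjusted p under 0.05 and a log2FC beyond 1.5, and 0 members had an unadjusted p under 0.05. The background was 0% of genes called by edgeR, although 15.4% had an unadjusted p under 0.05, and DESeq2 called 1796 genes (9.91%) but 0 members.

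The log2FC of the lines against DC3F9 ran from -0.05 ± 0.46 (*COX1*) to 0.87 ± 0.48 (*ND2*) and 0.87 ± 0.38 (*COX2*), with a median of 0.64 against 0.23 over all genes. The lowest edgeR adjusted p was 0.363, for *COX2*. *COX1* turned to 0.42 with total counts in place of TMM factors, a scaling that moved the median of all genes to 0.69, and it was the only member whose sign changed. *COX1* held 33.2% of member counts in DC3F9 and 21.2% to 26.0% in the lines, below it in all 3, while *ND2*, *ND4*, *ND5*, *ND6* and *COX2* each held a larger part in all 3 lines than in DC3F9. These parts share 1 total, so a smaller part of *COX1* leaves more for the other members, and the parts were not tested. DC3F9 is 1 library, so its own spread is unknown and the fit assumes that it varies like the lines. It was also grown with cytokines that the paper does not give for the lines, so cytokines and cell type cannot be told apart.

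HHS tumors were compared with HS tumors, whose columns all share 1 prefix. *ND5* lay at 2212 (HS41), 481 (HS46) and 2615 CPM (HS53) in HHS, inside the range of HS. The joint shares of these tumors, 9.68%, 2.79% and 5.33%, likewise spread over that range. All 10 members overlapped, where 0.0957% of genes did not, and edgeR called 0 of 10 and 0% of 19853 genes (4.01% had an unadjusted p under 0.05, and 0 members did), while DESeq2 called 1 gene (0.00517%) and 0 members. The log2FC ran from -0.28 ± 0.72 (*ATP6*) to 0.57 ± 0.69 (*ND5*), with edgeR adjusted p-values of 0.951 to 0.998. For every member except *ATP6* the mean log2 CPM was higher in HHS, while the log2FC was negative for 7 members, so the direction also depended on the kind of mean. It changed again for 6 members with total counts, and for 7 when HS46 was left out, after which *ND1* was at 0.38 in place of -0.09.

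Tumors of lung and liver, the sites with the most libraries, were compared to see whether members differed with the site. *ND2* lay at 198 (HS35), 2333 (median) and 2757 CPM (HS27) in 6 lung tumors and at 801 (HS33), 8467 (HS36), 663 (HS46) and 1566 CPM (HS50) in 4 liver tumors. HS36 exceeded all lung tumors for this gene and the other liver tumors lay inside their range. The log2FC, lung minus liver, ran from -0.73 ± 0.87 (*ND2*) to 0.73 ± 0.78 (*ND5*), all 10 members overlapped (0.572% of genes did not), and edgeR called 0 members and 0% of 17671 genes (5.13% had an unadjusted p under 0.05, and 0 members did). DESeq2 called 99 genes (0.576%) and 0 members. Without HS36 the sign changed for 8 members, and *ND2* was at 1.04.

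Members moved together across the 18 tumors. Spearman's rho between the CPM of 2 members ran from 0.57 (*ATP6* and *ND6*) to 0.97 (*ND2* and *CYTB*), with a median of 0.82 over 45 pairs. *ND5* and *ND6*, which are neighbours on opposite strands, had a rho of 0.95, and *COX2* and *COX3* 0.96. The 5 lowest values all involved *ND5* or *ND6*. Members share a library total, and all except *ND6* are read from the same strand. The tumors that lie at the ends of 1 gene lie at the ends of most, so these values describe the set and were not tested.

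Against the joint share itself, rho over 18 tumors was highest for *COX2* (0.97), *ND4* (0.96) and *COX3* (0.95) and lowest for *ND6* (0.75), as parts of the sum. Outside the run of identifiers, the most similar of 8922 genes with a mean of at least 3 log2 CPM were ENSCAFG00000005395 (0.79) and ENSCAFG00000020239 (0.77), which have no name at hand. The most opposite were ENSCAFG00000017500 and *TIMELESS* (both -0.83), the latter a gene of DNA replication and circadian timing. The median over all these genes was -0.18. All share the library total, of which the members took 0.705% to 17.3% in tumors, and the part of this in the negative values was not tested.

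Most other subunits of the same complexes come from nuclear genes, and 6 of 80 such genes listed could be paired with an identifier. The pairing used tables the study made from the same samples, so the choice of these 6 is not independent of the direction. Of these, *CYC1* (cytochrome c1, complex III) is listed at 0 in all 28 libraries and was not tested. In tumors against 5 controls, 4 of the other 5 rose at an edgeR adjusted p under 0.05, where 27.2% of all genes changed and 13% rose (14.2% fell): *NDUFB9* (log2FC 1.42 ± 0.38, adjusted p = 0.00804) and *NDUFA6* (1.25 ± 0.33, 0.00807), accessory subunits of complex I, and *ATP5F1B* (1.04 ± 0.36, 0.035) and *ATP5MG* (0.89 ± 0.33, 0.0487), of ATP synthase. *UQCRQ* of complex III was at 1.08 ± 0.58 (edgeR adjusted p = 0.165). None was called at the study's threshold. Against lung and spleen alone, 0 of 5 passed an adjusted p of 0.05 by edgeR (9.28% of all genes did), with a median log2FC of 0.74. Against blood 2 of 5 did, and 32.6% of all genes.

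Their rho with the joint share of the members was 0.42 for *UQCRQ*, 0.41 for *NDUFB9*, 0.30 for *ATP5MG*, 0.17 for *NDUFA6* and -0.32 for *ATP5F1B*. Across 19 nuclear genes of the lists it ran from -0.64 (*CS*, citrate synthase) to 0.42, with a median of -0.03. The median over all 8922 genes compared was -0.18. Members are parts of the joint share, so their own rho with it is no yardstick for these nuclear genes. Only 5 of the 80 listed nuclear genes of the chain could be compared.

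Of 12 listed genes for transcription and upkeep of mitochondrial DNA, 2 could be paired, again through tables the study made from the same samples. *TFB1M*, which methylates mitochondrial ribosomal RNA, rose in tumors (log2FC 1.13 ± 0.33, edgeR adjusted p = 0.013), and *NRF1*, a nuclear factor that activates respiratory genes, was at -0.48 ± 0.19 (0.0656). Against lung and spleen these values were 0.81 ± 0.49 and -0.06 ± 0.29, with edgeR adjusted p-values of 0.325 and 0.93.

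A further 15 genes of mitochondrial proteins were listed from names at hand, and 8 rose and 1 fell at an edgeR adjusted p under 0.05, with a median log2FC of 0.73. Of all genes tested, 13% rose and 14.2% fell at that level. At the study's threshold, *MRPL13*, a protein of the mitochondrial ribosome, was called higher (2.06 ± 0.35, edgeR adjusted p = 2.2e-04) and *SOD2*, the superoxide dismutase of the matrix, lower (-3.49 ± 0.43, 1.4e-05). Against lung and spleen, *SOD2* was at 0.02 ± 0.43 (edgeR adjusted p = 0.989), while *MRPL13* stayed higher (1.41 ± 0.44, 0.0453). It was the only one of the 15 to pass 0.05, where 9.28% of all genes did. These genes were paired through tables the study made from the same samples, so the list is not independent of the direction. In the cell lines, 0 genes of these 3 lists passed an edgeR adjusted p of 0.05, nor did any in HHS against HS or in lung against liver tumors.

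The run of 37 identifiers holds 27 further rows, of which 6 were counted in every library, at 2400 to 795651 counts, and 21 had at most 198 counts in any library. All 37 together took 0.801% (HS35) to 18.7% (HS29) of counts in tumors and 1.13% to 1.46% in blood, so the 10 members account for most of the run. Of the other 6 rows, ENSCAFG00000022728 followed the joint share most closely over the tumors (rho 0.91) and ENSCAFG00000022711 least (0.53). ENSCAFG00000022709 lay at 689 to 1219 CPM in blood and 186 to 1600 CPM in tumors. Its tumor median of 402 CPM thus lay below all 3 blood controls, whereas the tumor median of every member lay above them. In tumors against 5 controls, ENSCAFG00000022709 was at a log2FC of -0.40 ± 0.47 (edgeR adjusted p = 0.557), the only one of the 6 below 0.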

How the data were processed

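RNA-seq libraries of 24 tissue or blood samples and 4 cell cultures were analysed. The authors deposited raw read counts per gene for 32704 Ensembl identifiers, made per the study's methods and the submitters' processing notes with cutadapt 3.7, STAR 2.7.10a (CanFam3.1) and HTSeq 2.0.0, without normalization or a filter. The annotation release and strand option are not given in the sources used here. Reads of near-identical nuclear copies of mitochondrial DNA may have been shared or lost in counting, and how multiply mapped reads were treated is not stated.

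Samples were grouped by their labels, and 0 columns were left unassigned. CPM and shares used all counts of a library. Groups were compared over all genes with R 4.3.3 and edgeR 4.0.16 (limma 3.58.1), using TMM factors, the filterByExpr filter and quasi-likelihood tests, with p-values adjusted after Benjamini and Hochberg, and with DESeq2 1.42.0 as the alternative. All 10 members passed the filter in every comparison. Mean log2 CPM used a prior count of 2. p-values measure the spread between libraries, each treated as 1 animal or culture, although the sample titles do not identify the animals of the controls. The fits were run on simulated data with 200 changed genes, whose changes were larger than those of any member in the main fits. The simulation therefore does not cover effects of the size seen for the members. Python 3.11.15, numpy 2.4.6, pandas 2.3.3, scipy 1.17.1 and matplotlib 3.10.9 were used for the rest.

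The members and lists were chosen with earlier results of these data known. Genes named are all members, rows of the same run of identifiers, listed nuclear genes that a supplementary table pairs with an identifier, and the 2 most and 2 least similar genes outside the run. Alternatives were other size factors, library totals without the run, no filter, a robust fit, other thresholds, controls and tumors, and leaving out single libraries. None of the identifiers was found in the RefSeq gene table at hand, so no length, position or sequence was used.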

Additional observations from a re-analysis of the deposited data

Results flagged for a closer look

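For each member in groups of 4 to 10 tumors or controls, the highest or lowest library was compared with the rest by Dixon's gap at 95%. Of 84 sets of values tested, 5 passed, and chance gives about 1 in 20. Among the 6 lung tumors, HS35 was lowest for *ND2*, at a log2 CPM of 7.63, where the others lay at 10.1 to 11.4. In the same group HS53, an HHS tumor, had the highest *ND5* share of member counts, 4.90% against 1.58% to 2.45%. Among the 4 liver tumors, HS50 had the lowest *COX3* share, 13.6% against 18.1% to 18.2%. HS33 had the lowest *ND6* share, 0.134% against 0.275% to 0.298%. HS36 had the highest *CYTB* share, 4.97% against 2.36% to 2.80%.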

How the results depend on the processing

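No member was called in any comparison under any alternative at the study's thresholds. Median joint shares moved by less than the spread between libraries when the most counted gene was taken out of each library total. Where that gene was a member, in 11 of 28 libraries, it stayed in the joint count, so only the total changed. The composition of the 9 other members without *ND6* also moved by less than the spread. *ND6* held only 0.134% to 1.03% of member counts in tumors, so leaving it out could move little. Over all alternatives and members, 64 log2FC changed sign and 446 did not. In tumors against controls, *COX3* was at -0.18 and *CYTB* at -0.28 with lung and spleen. With lung, spleen and liver, *ND1* was at -1.11, *ND2* -1.22, *COX1* -1.65, *COX2* -0.96, *ATP6* -1.28, *COX3* -1.63, *ND4* -0.81, *ND5* -1.28, *ND6* -1.10 and *CYTB* -1.28. With these controls and total counts, added after seeing the data, they were at -0.18, -0.30, -0.75, -0.29, -0.51, -0.86, -0.22, -0.37, -0.14 and -0.71 in the same order. With all 6 controls, *ND1* was at -0.18, *ND2* -0.29, *COX1* -0.79, *COX2* -0.07, *ATP6* -0.36, *COX3* -0.72, *ND5* -0.42, *ND6* -0.25 and *CYTB* -0.38. Total counts gave *COX1* 0.42 in cell lines, and in HHS against HS *ND1* 0.07, *ND2* 0.05, *COX2* 0.04, *COX3* 0.12, *ND4* 0.14 and *CYTB* 0.09. Without HS37, *COX1* was at -0.05 there. The causes of these changes were not tested. Leaving out 1 control kept every member positive, and without the lung or the spleen control 1 member had an edgeR adjusted p under 0.05 (lowest 0.0447 and 0.0496). Leaving out 1 cell line gave -0.31 to 0.08 for *COX1* and -0.07 to 0.67 for *CYTB*, with signs turned without BD (both genes) or PJ (*COX1*). Leaving out 1 HHS tumor gave -0.94 to 0.38 for *ND1*, -0.99 to 0.34 for *ND2*, -0.29 to 0.26 for *COX1*, -0.81 to 0.21 for *COX2*, -1.02 to 0.09 for *ATP6*, -0.80 to 0.29 for *COX3*, -0.77 to 0.36 for *ND4* and -0.98 to 0.35 for *CYTB*, with signs turned without HS46 (7 members), HS53 (5) or HS41 (*COX1*). Leaving out 1 liver tumor gave -0.91 to 0.38 for *ND1*, -1.08 to 1.04 for *ND2*, -0.51 to 0.25 for *COX1*, -0.57 to 0.28 for *COX2*, -0.47 to 0.49 for *ATP6*, -0.63 to 0.40 for *COX3*, -0.54 to 0.62 for *ND4* and -0.54 to 1.02 for *CYTB*, with signs turned without HS36 (8 members) or HS50 (*COX1*). Total counts moved the median log2FC of all genes to -0.13 in tumors. The number of genes called in tumors was 539 with edgeR, 1721 with DESeq2, 1251 against blood, 222 against lung and spleen, 336 with HS tumors only and 222, 261 and 314 without blood control 1, 2 and 3. For cell lines it was 0 with edgeR and 28 without the filter, and for HHS 0 and 4. No paired analysis was possible because no label links libraries of different groups to the same animal. DC3F9 and each solid control are 1 library, which limits every comparison that rests on them more than depth does.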
